A study of Mus musculus with 8 samples.

Results

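The phagocyte NADPH oxidase is the enzyme with which neutrophils and macrophages turn oxygen into superoxide. Its genes were read here in whole mouse spines with proteoglycan-induced spondylitis (PGISp) and in control spines. The 6 members are Cybb, Cyba, Ncf1, Ncf4, Rac2 and Hvcn1. They were taken by gene symbol, and every probe of each was kept, which gave 8 of the 25695 probes with values. In the spines of PGISp mice 5 of the 6 genes were measured and all of these 5 were higher, by 1.34-fold to 1.95-fold, whereas the only probe of Cybb lay at background on every array.

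All mice were of the BALB/c strain and carried an IL4 knockout, controls included. The 4 PGISp mice were females, first injected at 3 months of age with human cartilage extract and the adjuvant dimethyl dioctadecyl ammoniumbromide, on days 0, 21 and 42. Only PGISp mice with severe arthritis of the peripheral joints were used, and arthritis of the spine itself was not assessed before extraction. The 4 control mice received no injection, so proteoglycan and adjuvant cannot be told apart, and neither the age nor the sex of the controls is given separately. Spines were taken at week 12, and each was hybridised to 1 of 8 MouseRef-8 arrays on 1 BeadChip. Each spine is named by the position of its array, A, C, E or G for the PGISp mice and B, D, F or H for the controls.

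In a resting phagocyte the oxidase is kept apart in pieces. CYBB (gp91phox, the chain that carries the electrons) and CYBA (p22phox) sit together in the membrane as flavocytochrome b, while NCF1 (p47phox) and NCF4 (p40phox) wait in the cytosol and RAC2 is held by an inhibitor. On activation they assemble at the membrane and pass electrons from NADPH to oxygen, and the proton channel HVCN1 lets protons follow so that the charge does not stop the enzyme. Loss of a phox subunit causes chronic granulomatous disease in people, and mice with a poorly working Ncf1 are known to develop more severe experimental arthritis.

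The values are deposited log2 values that the authors had normalized so closely that the sorted arrays differed by no more than 0.005. Probes for olfactory and vomeronasal receptors (1302 in all) served as background, whose 95th percentile on an array was 6.73 to 6.80. A gene was tested where its brightest probe had a mean above 6.77, the median of all values, and was called at a Benjamini-Hochberg adjusted p under 0.1 in limma over all 9608 genes tested. Spines are whole tissue, so more phagocytes and more RNA per phagocyte cannot be told apart. The Y-linked gene Eif2s3y read 6.61, 6.49, 6.65 and 6.54 in PGISp A, C, E and G, against 8.57, 6.91, 8.33 and 6.63 in control B, D, F and H. The X-linked gene Xist was lowest in control B and F, at 6.62 and 6.85 by 1 probe and 6.71 and 6.62 by the other. All other spines read at least 7.24 by either probe. Control B and F thus stood apart by a Y-linked signal and by low Xist, which the labels do not mention. The PGISp mice were females, and whether a difference of sex added to the changes was not tested. The calls lost without both control B and F are given beside the genes concerned.

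Of the 5 members tested 5 were called higher, where 6.26% of all genes tested were (601 of 9608). In 4 of the 5 the lowest PGISp spine exceeded the highest control spine, a separation found for 7.77% of all genes tested. No member was called lower, as 4.56% of all genes were, or lay lower without overlap, as 5.67% did. The median log2 fold change of the 5 members was 0.61, against -0.0047 over all genes tested. Ncf4 had the 26th largest rise among the 9608 genes, Rac2 the 55th, Ncf1 the 122nd, Hvcn1 the 297th and Cyba the 309th. Only 3 of the 5 were called without control F, without both control B and F, or by the methods' t-test, and these were Ncf1, Ncf4 and Rac2 in each case.

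**Figure D1:**
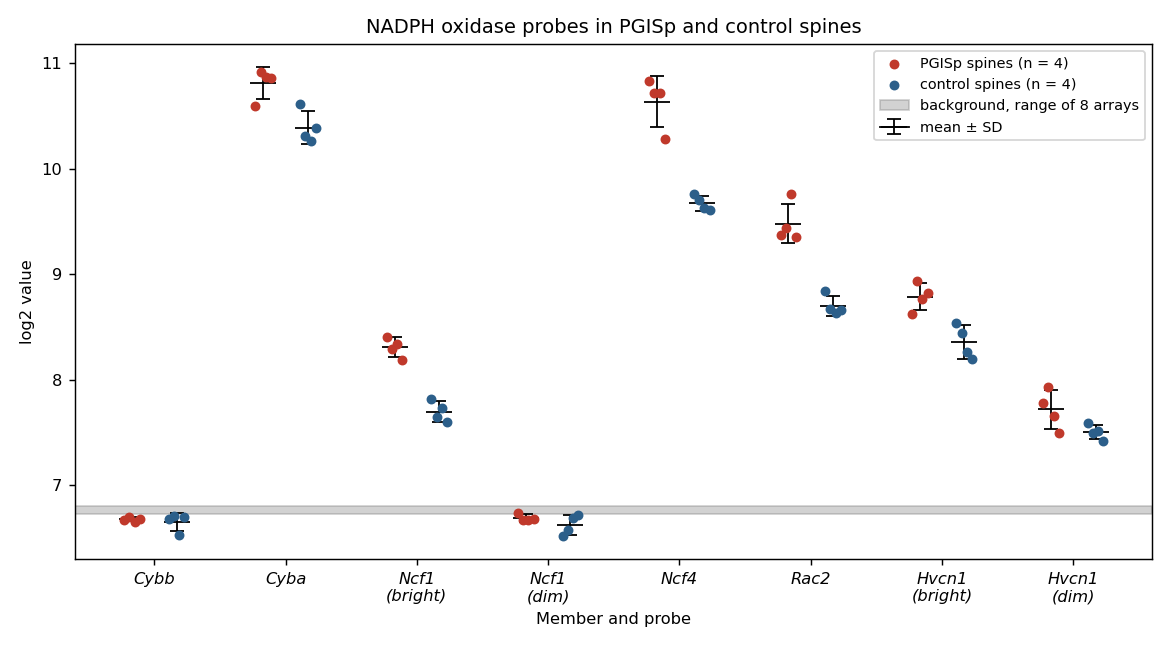
log2 values of the 8 probes of the 6 members (vertical axis), with PGISp spines in red on the left of each pair and control spines in blue on the right, 4 of each. Lines give the mean ± SD and the grey band the background of the 8 arrays, and the probe of Cybb and the dim probe of Ncf1 lie below or within the band while the PGISp values of Ncf1 (bright), Ncf4, Rac2 and Hvcn1 (bright) lie above all control values.

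The membrane chains are described first. Promoter sequence was available for 3 of the 6 members, Cybb, Cyba and Ncf1, and is shown because these 3 include both membrane chains, of which one was measured and the other was not. Each is 300 bases of the mouse RefSeq set (GRCm38.p6), 250 before and 50 after the annotated start, read 5′ to 3′ along the gene, which lies on the minus strand in all 3. Capitals mark 3 letter patterns searched on both strands, GAGGAA (core letters bound by PU.1, the product of Spi1), GAAA repeated after a gap of any 2 bases (letters of an interferon response element) and GGGCGG (the GC box), and no match overlapped another.
Cybb, chrX:9469275-9469574: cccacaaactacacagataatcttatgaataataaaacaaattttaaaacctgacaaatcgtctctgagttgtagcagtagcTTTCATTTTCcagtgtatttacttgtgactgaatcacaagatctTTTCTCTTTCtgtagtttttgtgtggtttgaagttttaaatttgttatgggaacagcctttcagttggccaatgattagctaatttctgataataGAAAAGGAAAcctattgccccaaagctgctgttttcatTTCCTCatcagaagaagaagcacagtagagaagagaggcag
Cyba, chr8:122432891-122433190: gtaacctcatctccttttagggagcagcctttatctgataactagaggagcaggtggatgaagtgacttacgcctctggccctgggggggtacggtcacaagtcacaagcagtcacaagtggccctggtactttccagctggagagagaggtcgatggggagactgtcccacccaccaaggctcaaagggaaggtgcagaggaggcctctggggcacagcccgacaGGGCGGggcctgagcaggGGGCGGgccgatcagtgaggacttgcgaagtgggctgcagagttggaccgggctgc
Ncf1, chr5:134229576-134229875: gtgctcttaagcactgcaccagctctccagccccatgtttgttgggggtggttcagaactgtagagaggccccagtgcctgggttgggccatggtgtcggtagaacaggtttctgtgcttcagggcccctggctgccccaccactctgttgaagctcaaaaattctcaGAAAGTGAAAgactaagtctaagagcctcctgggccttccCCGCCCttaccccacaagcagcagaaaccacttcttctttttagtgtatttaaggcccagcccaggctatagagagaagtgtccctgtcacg

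The Cybb window held 3 matches to the GAAA repeat, which begin 168, 124 and 29 bases before the start, the first 2 of them on the opposite strand. It also held 1 match to GAGGAA on the opposite strand, beginning at base 10 of the transcript, and no GGGCGG. The Cyba window held 2 matches to GGGCGG, beginning 24 and 6 bases before the start, and neither of the other patterns. The Ncf1 window held 1 GAAA repeat, beginning 82 bases before the start, and 1 GGGCGG on the opposite strand, beginning 42 bases before it. Of the 32544 mouse promoters of this length, 3.45% held the GAAA repeat, 28.1% GAGGAA and 35.9% GGGCGG. The share of G and C was 35.3% for Cybb, 60.7% for Cyba and 54% for Ncf1, against a median of 53% over all promoters. These are matches of letters and were not tested as sites.

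Cybb, on chromosome X, could not be measured. Its probe read 6.67, 6.70, 6.65 and 6.68 in PGISp A, C, E and G, against 6.68, 6.71, 6.53 and 6.70 in control B, D, F and H. It was above background on 0 of 8 arrays, and the groups overlapped. The means were 6.68 ± 0.019 in PGISp and 6.65 ± 0.085 in control spines (SD, n = 4 each), and the difference of 0.02 lay within the spread (exact permutation test over 70 splits, two-sided, p = 0.943). The probe entered no test over all genes and no fold is given. It is the only Cybb probe on the array, so the catalytic chain has no other reading here.

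Cyba, the partner chain on chromosome 8, was measured well above background on all 8 arrays. It read 10.60, 10.92, 10.87 and 10.86 in PGISp A, C, E and G, against 10.61, 10.31, 10.26 and 10.39 in control B, D, F and H. PGISp A lay just below control B, and the other 3 PGISp spines lay above all 4 control spines. The mean was 10.81 ± 0.15 in PGISp and 10.39 ± 0.15 in control spines (SD, n = 4 each), a rise of 1.34-fold (log2 fold change 0.42, standard error 0.096, adjusted p = 0.0324 in limma). The methods' t-test did not call Cyba (adjusted p = 0.120), nor did limma without control F (adjusted p = 0.109) or without control F and control B together (adjusted p = 0.119).

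Of the cytosolic subunits both Ncf1 and Ncf4 rose, under every alternative run. Ncf1, on chromosome 5, encodes the subunit whose phosphorylation starts assembly. Its brighter probe read 8.41, 8.29, 8.34 and 8.19 in PGISp A, C, E and G, against 7.82, 7.65, 7.73 and 7.60 in control B, D, F and H. The groups did not overlap, and the lowest PGISp spine lay 0.37 above the highest control spine. The means were 8.31 ± 0.093 in PGISp and 7.70 ± 0.097 in control spines (SD, n = 4 each), which is 1.53-fold (log2 fold change 0.61, 95% interval 0.45 to 0.77, adjusted p = 0.00228 in limma). A second Ncf1 probe was dim, at 6.67 to 6.74 in PGISp and 6.52 to 6.72 in control spines. It was above background on 0 of 8 arrays and measured no fold (exact permutation test, two-sided, p = 0.286).

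Ncf4 showed the largest rise of the 5 members tested. It lies on chromosome 15 and encodes p40phox, which binds a lipid of the phagosome membrane and sustains the enzyme there. It read 10.83, 10.72, 10.72 and 10.28 in PGISp A, C, E and G, against 9.76, 9.70, 9.63 and 9.61 in control B, D, F and H. PGISp G was the lowest of the PGISp spines and still lay 0.52 above control B, while the control spines spanned a narrow range. The means of 10.64 ± 0.24 in PGISp and 9.68 ± 0.071 in control spines (SD, n = 4 each) differed 1.95-fold (log2 fold change 0.96, 95% interval 0.72 to 1.20, adjusted p = 0.00198 in limma).

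Rac2, the small GTPase of blood cells that switches the oxidase on, rose 1.71-fold. It read 9.37, 9.44, 9.76 and 9.35 in PGISp A, C, E and G, against 8.84, 8.67, 8.63 and 8.66 in control B, D, F and H. PGISp E was the highest, and all 4 PGISp spines lay at least 0.51 above every control spine. The means were 9.48 ± 0.19 in PGISp and 8.70 ± 0.093 in control spines (SD, n = 4 each, log2 fold change 0.78, 95% interval 0.57 to 0.99, adjusted p = 0.00254 in limma). Rac2 lies on chromosome 15 as Ncf4 does, with 10 protein-coding genes between them, of which 8 were on the array and 3 were tested. None of these 3, Csf2rb2, Tst and Mpst, was called in limma (adjusted p = 0.208, 0.701 and 0.945, with log2 fold changes of 0.14, -0.06 and 0.01), and 1 of them, Csf2rb2, had an unadjusted p under 0.05.

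Rac1, the relative of Rac2 found in most cell types, did not pass the test. It read 7.45, 7.67, 7.43 and 7.42 in PGISp A, C, E and G, against 7.75, 7.68, 7.66 and 7.71 in control B, D, F and H. Its log2 fold change was -0.21 (adjusted p = 0.106 in limma), just over the threshold. Rac1 was called lower without PGISp C, which lay among the control spines (adjusted p = 0.0383). It was also called lower with array weights (adjusted p = 0.0673) and with the mean of a gene's probes (adjusted p = 0.0928). Rac1 has only 1 probe, so the latter setting left its own values and its log2 fold change of -0.21 as they were. Whether the GTPases changed differently was tested on the difference Rac2 minus Rac1 within each array, whose size has no meaning because the probes differ, but whose shift does. It was 1.92, 1.77, 2.32 and 1.93 in PGISp A, C, E and G, against 1.09, 0.99, 0.97 and 0.95 in control B, D, F and H. The groups did not overlap, and the shift was 0.99 (exact permutation test, two-sided, p = 0.0286, the smallest that 70 splits allow).

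Hvcn1, the proton channel, on chromosome 5, rose 1.35-fold by its brighter probe. This probe read 8.62, 8.94, 8.77 and 8.82 in PGISp A, C, E and G, against 8.54, 8.44, 8.26 and 8.20 in control B, D, F and H. The groups did not overlap, but PGISp A lay only 0.083 above control B. The means were 8.79 ± 0.13 in PGISp and 8.36 ± 0.16 in control spines (SD, n = 4 each, log2 fold change 0.43, standard error 0.094, adjusted p = 0.0285 in limma). As for Cyba, the call ended without control F (adjusted p = 0.101), without control F and control B together (adjusted p = 0.122) and in the methods' t-test (adjusted p = 0.113). The dimmer probe read 7.78, 7.93, 7.66 and 7.50 in PGISp A, C, E and G, against 7.59, 7.50, 7.51 and 7.42 in control B, D, F and H. These groups overlapped and this probe was not called when every probe was tested separately (log2 fold change 0.21, adjusted p = 0.199), where 5.84% of the 12492 probes were called higher.

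The members did not follow one order of the spines. PGISp A was the highest of the 4 PGISp spines for Ncf1 and Ncf4 and the lowest for Cyba and Hvcn1, whereas PGISp C was the highest for Cyba and Hvcn1 and PGISp E for Rac2. Once the mean of each group was removed, the correlation over the 8 arrays was 0.77 between Ncf1 and Ncf4 and 0.75 between Cyba and Hvcn1, but -0.14 between Cyba and Ncf4 and 0.02 between Ncf4 and Hvcn1. These values describe 8 arrays that share a BeadChip, and no test was made of them. Control B was the highest control spine for all 5 members.

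**Figure D2:**
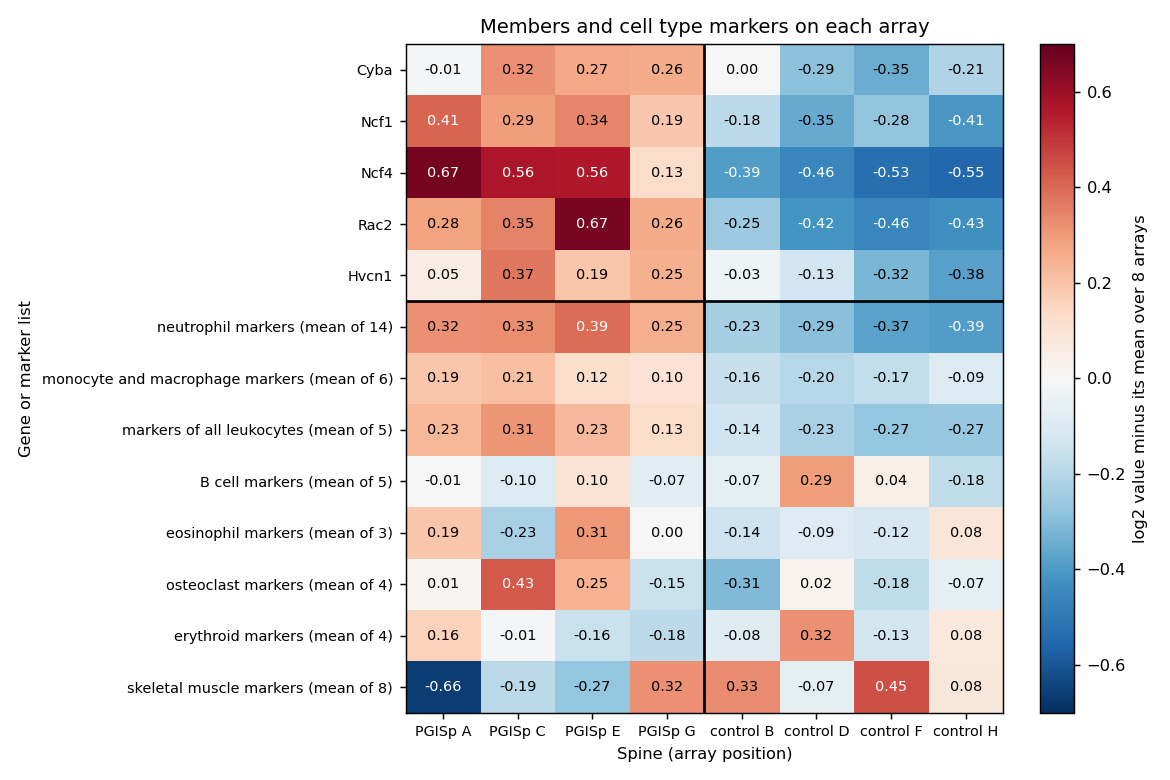
Each cell is a log2 value minus its mean over the 8 arrays, for the 5 members tested (upper rows) and for the mean of each marker list (lower rows), with the 4 PGISp spines on the left and the 4 control spines on the right. Colour repeats the printed number, and all 5 members and the neutrophil, monocyte and all-leukocyte lists are lower in the control spines, except that Cyba in PGISp A (-0.01) lies just under control B (0.00).

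Most neutrophil markers tested rose, as did some markers of monocytes, macrophages and all leukocytes. Of 14 neutrophil markers tested 11 rose and none fell, with a median log2 fold change of 0.70, and their mean level was 11.77 to 11.91 in PGISp against 11.13 to 11.28 in control spines. Prtn3, Ctsg and Elane, proteases of the neutrophil granule, rose 2.27-fold, 2.05-fold and 1.90-fold. S100a8 and S100a9, which are very abundant in neutrophils, were not called. S100a8 read 14.48 in PGISp A and in control B, the highest value of any probe on those arrays. S100a9 read at most 14.24 in PGISp and 14.12 in control spines. Whether a ceiling of the signal hid a rise was not tested. Of 6 monocyte and macrophage markers 2 rose (Lyz2 and Cd14) and none fell, with a median of 0.25, and Ccr2 was at background. The mean level of the 6 was 8.67 to 8.78 in PGISp against 8.38 to 8.48 in control spines. Lyz2 had the largest log2 fold change of the 6 (0.92), and Cd14 had 0.48. Of those not called, Adgre1 had 0.43, Mrc1 0.07, Cx3cr1 0.02 and Cd163 -0.05. Of 5 markers of all leukocytes 3 rose (Coro1a, Cd53 and Lcp1), with a mean level of 9.71 to 9.89 in PGISp against 9.31 to 9.44 in control spines. The calls for Cd14 and Cd53 ended when control B and F were both left out (adjusted p = 0.213 and 0.197), and that for Cd14 also without control B or H alone (adjusted p = 0.122 each). The part of cell number in the rise of the oxidase genes was not tested.

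Markers of other cell types are given for comparison, and differences between lists were not tested. None of 5 B cell markers, which are of interest because B cells express Hvcn1, was called in limma, and their mean level was 7.52 to 7.71 in PGISp against 7.43 to 7.90 in control spines, with Pax5 at background. None of the markers tested for T cells (1), eosinophils (3), osteoclasts (4), erythroid cells (4) or cartilage (3) was called, with median log2 fold changes of 0.09, 0.16, 0.17, -0.07 and 0.39. At an unadjusted p under 0.05 limma had 2 osteoclast markers and 1 cartilage marker higher, 1 erythroid marker lower and none of the B cell, T cell or eosinophil markers, and the methods' t-test had none of any of these. Of 6 bone genes 2 rose, Ibsp and Col1a1, with a median of 0.42, and the call for Col1a1 ended when control B and F were both left out (adjusted p = 0.152). None of 8 skeletal muscle genes was called (4 lower at an unadjusted p under 0.05 in limma, none by the methods' t-test), with a median of -0.45 and mean levels of 12.15 to 13.13 in PGISp against 12.74 to 13.26 in control spines. Without PGISp G, whose muscle level lay among those of the controls, 6 of the 8 muscle genes were called lower, while 11 neutrophil markers, 5 oxidase members, 4 bone genes, 2 osteoclast markers and 1 cartilage marker were called higher.

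For each member above the filter, the genes with the most similar values over the 8 arrays were looked up by Pearson correlation, which here includes the difference between the groups. Cyba was most like Dlx3, Irf8 and Lcp1 (r = 0.993, 0.990 and 0.980), and Irf8 is a transcription factor of myeloid and B cells. Ncf1 was most like Fpr2, Lrg1 and Arhgdib (r = 0.990, 0.988 and 0.987). Ncf4 was most like Cmtm7, Lrg1 and Arhgap30 (r = 0.992, 0.991 and 0.990), so Lrg1, a glycoprotein stored in neutrophil granules, stood near both. Rac2 was most like Ngp, Prtn3 and Ly86 (r = 0.993, 0.986 and 0.982), of which Ngp and Prtn3 encode neutrophil granule proteins. Hvcn1 was most like Cap1, Selp and Emilin2 (r = 0.981, 0.977 and 0.970). With the group means removed these correlations were 0.84 to 0.98. The genes had been picked for high correlation over these same 8 arrays, so these values are no separate support. No test was made of them.

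Of the other subunits and oxidases, 9 of 13 were named on the array and 3 were tested, of which Cybc1 and Nox4 rose and Rac1 was not called. Cybc1 encodes a chaperone that the membrane chains need to be stable. It read 8.41, 8.64, 8.59 and 8.36 in PGISp A, C, E and G, against 8.08, 8.04, 8.12 and 8.08 in control B, D, F and H. The groups did not overlap, and Cybc1 rose 1.34-fold (adjusted p = 0.0119 in limma), a call that ended when control B and F were both left out (adjusted p = 0.117). Nox4, an oxidase of non-phagocytic cells that needs CYBA but no cytosolic subunit, read 7.40, 7.45, 7.09 and 7.02 in PGISp A, C, E and G, against 6.93, 6.96, 6.77 and 6.87 in control B, D, F and H. It rose 1.28-fold without overlap (adjusted p = 0.0687), a call that was lost under 8 alternatives, among them leaving out PGISp A or C or control B, F or H (adjusted p from 0.125 to 0.194) and control B and F together (adjusted p = 0.366). Nox1, Nox3, Noxo1, Noxa1, Duox2 and the GTPase Rap1a were too dim to be tested.

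Genes that regulate the assembly and activation of the oxidase also rose in part. Of 13 tested 6 rose and none fell, with a median log2 fold change of 0.33. Arhgdib, the inhibitor that holds Rac proteins in the cytosol, read 12.35, 12.30, 12.41 and 12.23 in PGISp A, C, E and G, against 11.56, 11.47, 11.54 and 11.46 in control B, D, F and H. It rose 1.76-fold (adjusted p = 0.00022), and the spread within each group was small beside the gap. Fpr2, a formyl peptide receptor of neutrophils, read 11.75, 11.52, 11.70 and 11.55 in PGISp A, C, E and G, against 11.02, 10.95, 10.94 and 10.77 in control B, D, F and H, and rose 1.64-fold (adjusted p = 0.00173). Fcgr3, a receptor for immune complexes, rose 1.58-fold (adjusted p = 0.00745) and read 9.72 ± 0.16 in PGISp and 9.06 ± 0.16 in control spines (SD, n = 4 each).

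Of the kinases that phosphorylate p47phox, Prkcd rose 1.41-fold (adjusted p = 0.0237) and Prkcb 1.26-fold (adjusted p = 0.0238), and of the exchange factors for Rac proteins Vav3 rose 1.22-fold (adjusted p = 0.0518). Vav1, another exchange factor, and Pik3cg, a lipid kinase downstream of chemoattractant receptors, had log2 fold changes of 0.45 and 0.43 with overlapping groups and were not called. The integrin chains Itgam and Itgb2, the receptor Fcgr1, the kinase Syk and the exchange factor Prex1 were not called either, with log2 fold changes of -0.0043 to 0.17. C5ar1, Fcer1g, Pik3r5 and Pla2g4a were too dim to be tested. The call for Prkcd was lost by the methods' t-test (adjusted p = 0.108), that for Prkcb without control B and F together (adjusted p = 0.188) and that for Vav3 without PGISp C or control B, D or F (adjusted p up to 0.136), without control B and F together (adjusted p = 0.336) or by the methods' t-test (adjusted p = 0.120), and the count of genes that rose was 5 to 7 when single spines were left out and 4 without both control B and F.

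**Figure D3:**
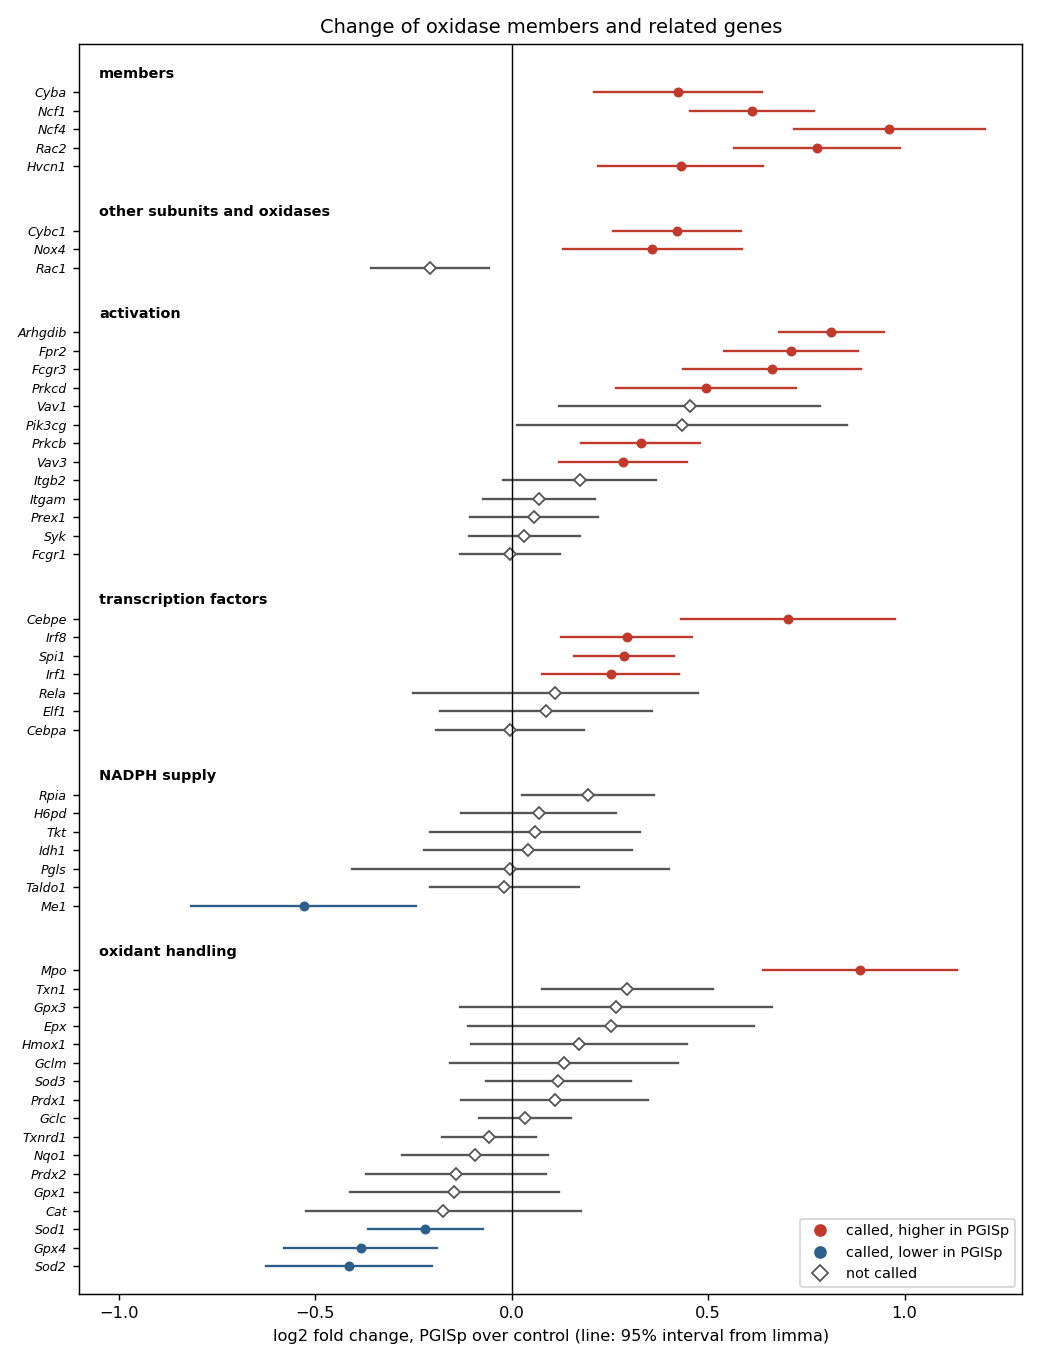
log2 fold change of PGISp over control spines (horizontal axis) with its 95% interval from limma, for the 5 members tested and for each tested gene of 5 related lists. Red circles were called higher, blue circles lower and open diamonds were not called, and the circles for the members lie between 0.42 and 0.96 while the lists of NADPH supply and oxidant handling scatter around 0.

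Among transcription factors of myeloid cells, of which PU.1 and Irf8 are known to act on phox genes, more than one was higher. Of 7 tested 4 rose and none fell, with a median log2 fold change of 0.25. Spi1, which encodes PU.1, read 7.60, 7.63, 7.54 and 7.56 in PGISp A, C, E and G, against 7.30, 7.36, 7.31 and 7.21 in control B, D, F and H, and rose 1.22-fold (adjusted p = 0.0201). The groups of Spi1 did not overlap. Cebpe, needed for late neutrophil maturation, rose 1.63-fold (adjusted p = 0.0119), and its second probe 1.26-fold. Irf8 rose 1.22-fold (adjusted p = 0.0499) and Irf1 1.19-fold by its brightest probe (adjusted p = 0.0888). With every probe tested separately in limma, another Irf1 probe was called higher (log2 fold change 0.30, adjusted p = 0.0948). Dimmer Irf1 probes above the filter had log2 fold changes of 0.12 and 0.02 and were not called (adjusted p = 0.429 and 0.867). The dimmest Irf1 probe was at background. Without both control B and F none of the 7 was called in limma (adjusted p = 0.119 for Cebpe, 0.156 for Spi1, 0.189 for Irf8 and 0.469 for Irf1, with 3 higher at an unadjusted p under 0.05). The log2 fold changes of these genes were then 0.65, 0.30, 0.33 and 0.18, against 0.70, 0.29, 0.29 and 0.25 with all spines. The call for Irf8 was also lost without PGISp C or E or control F or H (adjusted p from 0.107 to 0.150), and that for Irf1 under 11 alternatives, among them leaving out PGISp A or C or control B, F or H (adjusted p from 0.148 to 0.236).

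Most genes of NADPH supply and of oxidant handling were not called. Over all genes tested 6.26% were called higher and 4.56% lower. Of 7 enzymes that make NADPH or belong to the pentose phosphate pathway, without the dehydrogenases G6pdx and Pgd, which are not analysed here, none rose in limma and 1 fell (1 higher and 1 lower at an unadjusted p under 0.05, and none called by the methods' t-test), with a median log2 fold change of 0.04. The gene that fell was Me1, malic enzyme, which read 8.54, 8.65, 8.87 and 9.02 in PGISp A, C, E and G, against 9.08, 9.20, 9.33 and 9.58 in control B, D, F and H. By this probe, its brighter, Me1 was 1.44-fold lower in PGISp spines without overlap (adjusted p = 0.041). The call was lost without control F (adjusted p = 0.123) or without control B and F together (adjusted p = 0.145). The second Me1 probe was also called lower when every probe was tested separately (log2 fold change -0.56, adjusted p = 0.0676). Its groups overlapped. Of 17 genes of oxidant handling 1 rose and 3 fell, with a median of 0.03. The gene that rose was Mpo, myeloperoxidase, which makes hypochlorous acid from the hydrogen peroxide that the oxidase yields. It read 13.22, 13.64, 13.46 and 13.21 in PGISp A, C, E and G, against 12.65, 12.60, 12.37 and 12.37 in control B, D, F and H. The groups did not overlap, the rise was 1.85-fold (adjusted p = 0.00282), and its other probes gave 2.05-fold and 1.86-fold.

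The 3 genes that fell protect cells from oxidants. Sod2, the superoxide dismutase of mitochondria, read 10.77 ± 0.17 in PGISp and 11.19 ± 0.12 in control spines (SD, n = 4 each), which is 1.33-fold lower (adjusted p = 0.0333). Gpx4, which reduces lipid peroxides, was 1.31-fold lower (adjusted p = 0.0329), and Sod1, the cytosolic dismutase, 1.16-fold lower (adjusted p = 0.0795). The groups did not overlap for any of the 3. None of the 3 was called by the methods' t-test (adjusted p = 0.121, 0.115 and 0.121), and Sod2 was not called without control F (adjusted p = 0.113) or without control B and F together (adjusted p = 0.305). Sod1 lost its call under 10 alternatives, which include leaving out any single spine but PGISp A (adjusted p from 0.106 to 0.219) and control B and F together (adjusted p = 0.366). Txn1, Gpx3, Epx and Hmox1 had log2 fold changes of 0.17 to 0.29 with overlapping groups and were not called.

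**Figure D4:**
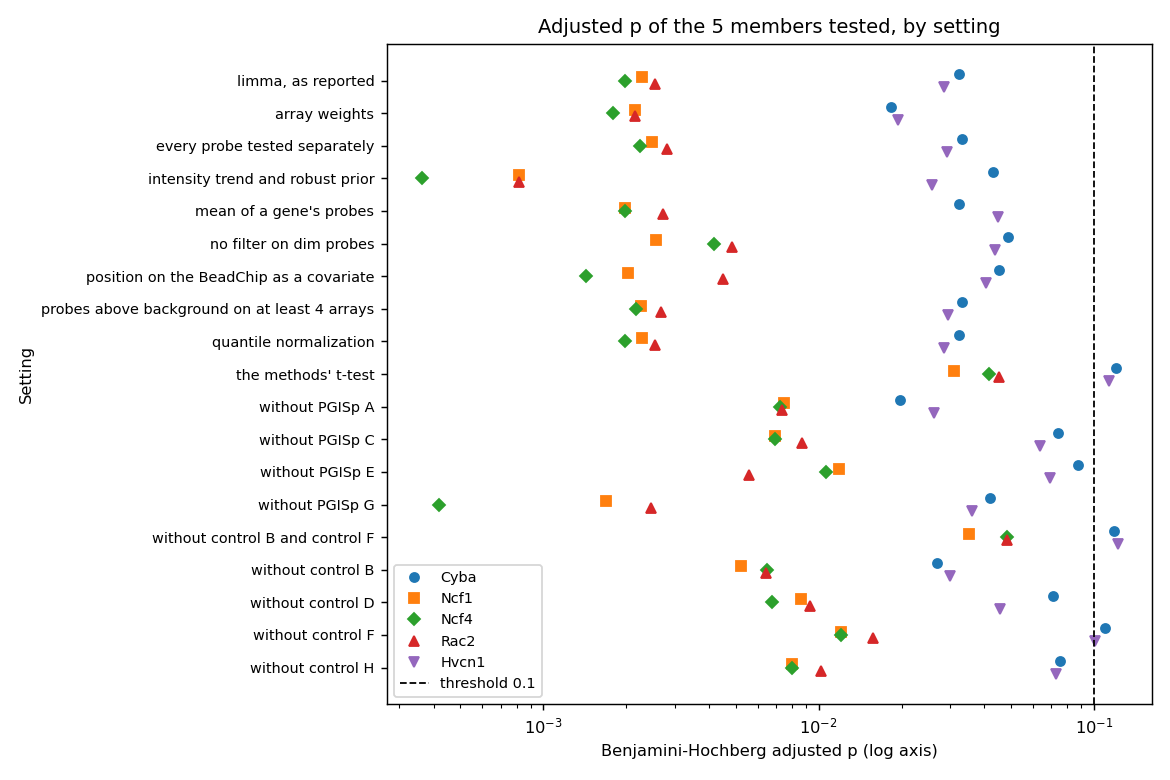
Benjamini-Hochberg adjusted p (horizontal log axis) of the 5 members tested in the reported fit and under alternative settings (vertical axis), with the dashed line at the threshold of 0.1. Ncf1, Ncf4 and Rac2 lie left of the line in every setting shown, with at most 0.0483, while Cyba and Hvcn1 cross it without control F, without both control B and F and by the methods' t-test.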

How the data were processed

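Total RNA of 8 whole spines (4 PGISp, 4 control) was amplified from 500 ng and read on 1 Illumina MouseRef-8 BeadChip. The submitters' notes name BeadStudio, and the methods name GenomeStudio and lumi, in which signals were variance stabilized and then normalized by robust splines. The deposited values are log2 values to which the authors had applied these steps, so differences between arrays in overall level were already removed, and the number of arrays limits the precision. A second deposited table was not used, because the names of its 8 signal columns match no sample label. Of 25695 probes with values, 23976 carried 1 gene symbol and 1719 none. The filter kept the 12492 probes whose mean log2 value exceeded 6.77, and the brightest of these stood for its gene (9608 genes). PGISp and control spines were compared by limma's lmFit and eBayes (two-sided, called under a Benjamini-Hochberg adjusted p of 0.1), and probes under the filter and the difference Rac2 minus Rac1 with exact permutation tests. Of the 2 differences planned, Cybb minus Cyba was not run, because Cybb was at background. A fold is 2 raised to the difference of the group means.

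Named genes were the members, fixed genes and up to 4 called genes of 5 related lists (other subunits, activation, NADPH supply, oxidant handling, transcription factors), and the 3 genes most like each member. A few other genes of these lists and of the cell type markers were named after their values were seen. The members, lists and tests were chosen with earlier results of these data known. Each spine came from its own mouse. Fits were tested on simulated data. Alternatives covered the filter, probe choice, normalization, variance model, array weights, array position, threshold, test and left-out spines. The methods' t-test was adjusted by Benjamini-Hochberg and not by the study's multivariate permutation correction. The fits ran in limma 3.58.1 under R 4.3.3. Summaries were made in Python 3.11.15 with pandas 2.3.3, numpy 2.4.6 and scipy 1.17.1, and plots with matplotlib 3.10.9.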

Additional observations from a re-analysis of the deposited data

Results flagged for a closer look

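Among 48 groups of 4 spines checked for a spine far from the others, of which chance alone flags about 1 in 20, there were 2. For the Cybb probe control F read 6.53, against 6.68 to 6.71 in the other control spines, a gap of 0.855 of the group's range, below background in all cases. For Rac1 PGISp C read 7.67, against 7.42 to 7.45 in the other PGISp spines, a gap of 0.902 of the range.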

How the results depend on the processing

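Ncf1, Ncf4 and Rac2 kept their direction and their call under all 19 alternatives, with adjusted p of 0.000819 to 0.0350, 0.000362 to 0.0483 and 0.000819 to 0.0483. Some alternatives could hardly differ, since the deposited arrays were already closely matched and each of these genes had a single probe above the filter. Cyba and Hvcn1 kept their direction under all 19 and their call under 16. The log2 fold change of Cyba was 0.42 by the methods' t-test and 0.46 without both control B and F, and that of Hvcn1 0.43 and 0.47, none of them called. With single spines left out it was 0.38 to 0.50 for Cyba and 0.38 to 0.49 for Hvcn1, and both calls ended without control F (0.38 and 0.40). The number of members called was 3 by the methods' t-test, 3 without both control B and F and 3 to 5 with single spines left out, the 3 being without control F. Rac2 minus Rac1 was 0.87 to 1.06 under its 10 alternatives, each with an exact p of 0.0286, the smallest possible also with 7 spines.

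Over all genes the count called was 411 by the methods' t-test (258 higher, 153 lower), 163 without both control B and F (123 higher, 40 lower) and 577 at an adjusted p under 0.05 (363 higher, 214 lower). With single spines left out it was 405 to 1564, of which 263 to 818 were higher and 142 to 746 lower. The lowest count was without control F and the highest without PGISp G, and without control B it was 619 and without PGISp E 630. The cause of these changes was not tested. The neqc alternative was not run, because the signal columns could not be assigned to samples. No paired analysis was possible because the replicate numbers only name the spines in order and pair no PGISp spine with a control spine. Probes near background, such as those of Cybb, the dim one of Ncf1 and Rap1a, limit what could be measured.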
